A study of Mus musculus with 8 samples.

Results

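The transcripts of sterol synthesis and of its SREBP control circuit were examined in chronic stroke infarcts of aged mice. They comprised 26 genes, chosen by name from 46078 Ensembl genes counted. These were 8 enzymes of the mevalonate stage, 3 that convert farnesyl diphosphate to lanosterol, 9 that convert lanosterol to cholesterol, and 6 genes of SREBP control and sterol transfer. Of the 26 genes, 25 passed the filter on low counts and are among the 14736 genes tested.

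All 8 animals were wild type male C57BL/6J mice, 18 months old, and all had DH stroke, an occlusion of the distal middle cerebral artery combined with hypoxia. Vehicle animals (n = 4) received sterile PBS and HPβCD animals (n = 4) received 2-hydroxypropyl-β-cyclodextrin at 4 g/kg, a ring of sugars that can hold cholesterol in its cavity. Both were injected subcutaneously 3 times per week for 6 weeks, from 1 week after stroke, and the infarct was collected at 7 weeks. Each library is 1 infarct, which was located visually and excised by hand, so that the amount of adjoining cortex could vary.

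Cholesterol in the brain is made locally, because lipoproteins of the blood do not cross the intact blood-brain barrier. Oligodendrocytes and astrocytes are its main producers in the adult brain, oligodendrocytes for myelin and astrocytes for export on apolipoprotein E. The enzymes are switched on by SREBP-2, a membrane-bound transcription factor that SCAP escorts from the endoplasmic reticulum to the Golgi when membrane sterol is low, while INSIG proteins hold SCAP back when sterol is high. SREBP-1, the product of a related gene, mainly drives fatty acid synthesis and is itself a target of the liver X receptors (LXR), which sense oxysterols.

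The libraries held between 16.6 M and 32.9 M gene counts. The labelled tissue was checked against marker genes of the cells it can hold, as summed CPM, a count scaled to the library total and its TMM factor. Markers of foamy macrophages (8 genes, led by *Gpnmb*) reached 6916 to 12328 CPM in the vehicle group and 15269 to 25053 CPM in HPβCD infarcts. Fibroblast markers (7 genes) ranged from 2369 to 6074 and from 8747 to 9351 CPM, and endothelial markers (6 genes) from 430 to 505 and from 470 to 805 CPM. Microglia markers (6 genes) ranged from 488 to 1015 and from 649 to 1055 CPM. That sum is weighted to abundant genes: by edgeR, 4 of the 6 had a log2 fold change (HPβCD over vehicle) below 0 and 2 above. The median of the 6 was -0.92, against -0.05 over all genes tested. Neuron markers (8 genes) ranged from 19.0 to 6132 CPM in the vehicle group and from 8.88 to 85.7 CPM in HPβCD infarcts. The vehicle infarcts were unlike one another in neuronal RNA: the neuron marker sums of vehicle animals 1 and 3 were 970 and 6132 CPM, whereas those of vehicle animals 2 and 4 were 42.2 and 19.0 CPM. Results are therefore given with and without vehicle animals 1 and 3. In bulk tissue, fewer cells of a type and less RNA per cell cannot be told apart.

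The sequence upstream of 4 members is printed for reference to the values further on: *Hmgcs1* and *Srebf2*, which hold a match to the core of the sterol regulatory element, and *Sc5d* and *Ebp*, the member with the lowest edgeR p-value and the one with the largest difference towards HPβCD. The sequences come from RefSeq (GRCm38.p6) and are the 250 bases before the start site, on the strand of the gene. That of *Srebf2* was cut where the GENCODE M21 gene model begins. Capitals mark TCACNCCA, the core of the sterol regulatory element, and CCAAT, the site of NF-Y, which acts together with SREBP on many of these promoters. Both were searched on either strand, where CCAAT reads ATTGG. The motifs do not overlap one another here.
Hmgcs1 (chr13:119690101-119690350, plus strand): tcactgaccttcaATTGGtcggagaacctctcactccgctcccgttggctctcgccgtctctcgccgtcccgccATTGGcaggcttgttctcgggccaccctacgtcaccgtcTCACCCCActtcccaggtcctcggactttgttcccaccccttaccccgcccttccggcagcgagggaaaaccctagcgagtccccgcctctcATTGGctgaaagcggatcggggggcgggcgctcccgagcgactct
Srebf2 (chr15:82147019-82147180, plus strand): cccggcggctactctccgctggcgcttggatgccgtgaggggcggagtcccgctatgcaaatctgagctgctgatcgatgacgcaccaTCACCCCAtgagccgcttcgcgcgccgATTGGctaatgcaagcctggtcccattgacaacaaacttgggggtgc
Sc5d (chr9:42264301-42264550, minus strand): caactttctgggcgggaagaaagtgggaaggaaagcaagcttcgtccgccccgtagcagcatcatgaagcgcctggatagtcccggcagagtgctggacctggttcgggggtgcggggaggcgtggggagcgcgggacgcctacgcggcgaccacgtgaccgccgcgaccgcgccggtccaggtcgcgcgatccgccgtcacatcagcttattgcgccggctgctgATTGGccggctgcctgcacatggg
Ebp (chrX:8193513-8193762, minus strand): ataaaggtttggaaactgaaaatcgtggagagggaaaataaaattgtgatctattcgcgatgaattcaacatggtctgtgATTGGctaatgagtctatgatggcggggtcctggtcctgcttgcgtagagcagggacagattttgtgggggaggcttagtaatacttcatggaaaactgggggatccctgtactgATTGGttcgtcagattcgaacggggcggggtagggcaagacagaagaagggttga

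Promoter entries matched 22 of the 26 genes, and *Sqle*, *Fdft1*, *Fdps* and *Stard4* had none. CCAAT occurred in 20 of the 22 genes (all but *Acat2* and *Scap*), against 37.5% of all 27025 genes with an entry and 39.9% of the 11075 tested genes among them. The GC box GGGCGG, the site of SP1, also occurred in 20 of 22 (all but *Pmvk* and *Ggps1*), against 35.4% of all genes and 62.3% of tested genes. TCACNCCA occurred in 3 of 22, *Hmgcs1*, *Msmo1* and *Srebf2*, against 4.20% of all genes and 4.06% of tested genes. It began 137 bases before the start site of *Hmgcs1* and 162 bases before that of *Srebf2*. The E-box CACGTG occurred in 5 of 22, against 6.86% of all genes and 9.48% of tested genes. A match is a string of letters and not a measured binding site.

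Levels of different genes were compared per kilobase of exon. *Hmgcs1*, the cytosolic synthase that makes hydroxymethylglutaryl-CoA, stood first in vehicle infarcts with 25.6 ± 11.4 CPM per kilobase (SD, n = 4). *Srebf1* and *Insig2* followed with 24.4 ± 4.86 and 24.2 ± 5.10 CPM per kilobase, so the first 3 genes in this order lay within the spread of one another. *Insig1* (17.6 ± 6.47), *Srebf2* (14.7 ± 6.68) and *Lbr* (11.4 ± 2.89 CPM per kilobase) came next, again with overlapping spreads. In HPβCD infarcts *Hmgcs1* stood at 13.2 ± 1.86 CPM per kilobase, below *Srebf1*, the SREBP-1 gene (28.0 ± 7.28), and the SREBP retention genes *Insig2* (25.3 ± 2.90) and *Insig1* (14.9 ± 3.41 CPM per kilobase), the last of which lay within the spread of *Hmgcs1*. At the low end were *Idi1*, *Tm7sf2* and *Fdps*, with 0.855, 0.793 and 0.0420 CPM per kilobase in vehicle infarcts. *Fdps* had between 0 and 7 counts per library, did not pass the filter and was not tested. Its count is uncertain, because 23.5% of its stretches of 75 bases (the read length) also occur in transcripts of other genes and 26.7% of its exon length is shared with *Gm43738* on the same strand.

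**Figure D1:**
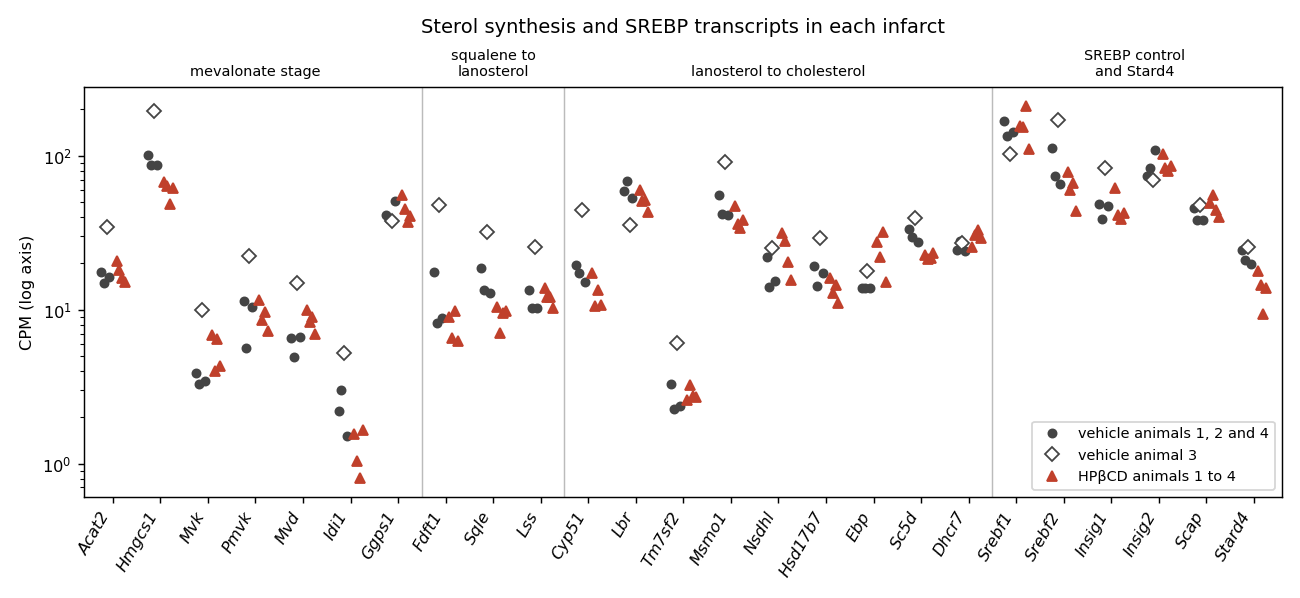
CPM (log axis) of the 25 tested genes in each infarct, ordered by stage of the pathway, with dark points for vehicle animals 1, 2 and 4, open diamonds for vehicle animal 3 and red triangles for the 4 HPβCD animals. The diamond is the highest of the 8 values in 17 of the 25 genes.

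The comparison of HPβCD with vehicle asked how these transcripts differed after repeated administration of a compound that binds cholesterol. None of the 25 genes had an adjusted p under 0.05 in the quasi-likelihood test of edgeR (Benjamini-Hochberg over all genes), where 1.95% of all tested genes did, 1.17% higher and 0.774% lower in HPβCD infarcts. By edgeR, 10 of the 25 (40.0%) had an unadjusted p under 0.05, 9 of them lower in HPβCD infarcts and 1 higher, against 27.8% of all tested genes. The groups did not overlap in 4 genes, all lower in HPβCD infarcts (16% of the 25, against 8.03% of all tested genes lower, 8.77% higher and 16.8% in either direction). These 4 were *Hmgcs1*, *Sqle*, *Sc5d* and *Stard4*. Of the 25 log2 fold changes 16 were below 0 (64.0%, against 54.1% of all tested genes), with a median of -0.29 against -0.05 over all genes and a range from -1.39 to 0.70. DESeq2, the tool of the study, gave 5 of the 25 an adjusted p under 0.05 (of the genes it tested 17.0% passed, 5.92% higher and 11.1% lower): the same 4 genes, lower, and *Ebp*, higher. The calls of these members thus depended on the test.

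The spread among vehicle animals exceeded that among HPβCD animals in most of these genes. The range over 4 animals was larger in vehicle for 18 of the 25 genes, with a median range of 1.15 log2 units in vehicle and 0.563 in HPβCD infarcts. Vehicle animal 3 had the highest of the 8 values in 17 of the 25 genes. Centred on each gene's mean, the median log2 level of the members was 0.89 in vehicle animal 3, 0.17 in animal 1 and -0.15 in animals 2 and 4 of that group. In HPβCD animals 1 to 4 it was 0.11, -0.24, -0.15 and -0.28, so without vehicle animal 3 the remaining animals of the groups were interleaved. Vehicle animal 3 is also the library with the highest neuron marker sum. The part of its neuronal RNA in the high sterol transcripts was not tested beyond the fits given further on.

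In the mevalonate stage, *Hmgcs1* (chr13:119690379-119708260 in GENCODE M21, GRCm38) was lower in every HPβCD infarct than in any vehicle infarct. It measured 102, 86.6, 196 and 87.3 CPM in vehicle animals 1 to 4 and 67.9, 63.9, 48.3 and 62.1 CPM in HPβCD animals 1 to 4. Means were 118 ± 52.3 and 60.6 ± 8.53 CPM (SD, n = 4 in both groups), and the log2 fold change was -0.96 (SE 0.28, adjusted p = 0.0819 by edgeR). Vehicle animal 3 stood far above the other 3 vehicle animals, which were close together and still above all HPβCD animals. Without it the log2 fold change was -0.60 (adjusted p = 0.0512 by edgeR), and without vehicle animals 1 and 3 it was -0.51 (adjusted p = 0.123 by edgeR). Of the exon length of *Hmgcs1*, 12.1% overlaps *Gm48342* on the opposite strand, and 9.79% of its 75-base stretches occur in other genes. The promoter printed above is the only one of the 4 that holds the sterol element core and 3 CCAAT matches.

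*Idi1*, the isomerase that activates isoprene units, measured 2.21, 3.01, 5.27 and 1.51 CPM in the vehicle group and 1.55, 1.04, 0.805 and 1.67 CPM in HPβCD infarcts. The groups overlapped through vehicle animal 4, and the log2 fold change of -1.24 (SE 0.43, adjusted p = 0.109 by edgeR) rested on 15 to 105 counts per library. The reading is uncertain in another way, since 23.6% of its 75-base stretches occur in other genes. The 3 kinase and decarboxylase steps between showed no common direction. *Mvk*, mevalonate kinase, was at 3.90, 3.30, 9.99 and 3.44 CPM in the vehicle group and 6.84, 3.98, 6.44 and 4.33 CPM in HPβCD infarcts. *Mvd*, the decarboxylase, was at 6.56, 4.94, 14.9 and 6.67 CPM and at 9.94, 8.33, 9.02 and 7.00 CPM. In both genes vehicle animal 3 was the highest library and the other 3 vehicle animals lay below all 4 HPβCD animals. Their log2 fold changes of 0.07 and 0.06 became 0.61 and 0.51 without vehicle animal 3 (adjusted p = 0.158 and 0.140 by edgeR). *Pmvk*, phosphomevalonate kinase, had a log2 fold change of -0.42 (SE 0.38), and without vehicle animal 3 it was 0.03.

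*Ggps1*, which leaves the sterol path towards geranylgeranyl lipids, did not follow vehicle animal 3. It was at 42.0 ± 6.01 CPM in the vehicle group and 44.6 ± 7.85 CPM in HPβCD infarcts, with a log2 fold change of 0.09 (SE 0.17, adjusted p = 0.780 by edgeR). *Acat2*, the thiolase that joins acetyl groups at the head of the pathway, was at 20.9 ± 9.25 and 17.5 ± 2.48 CPM (log2 fold change -0.25), a value that is uncertain because 33.9% of its 75-base stretches also occur in *Acat3* or *Tcp1*. Over the 7 tested genes of the stage, 4 log2 fold changes were below 0 and the median was -0.25.

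Of the genes from farnesyl diphosphate to lanosterol, all 3 were lower in HPβCD infarcts on average, with a median log2 fold change of -1.06. Without vehicle animals 1 and 3 the log2 fold changes were -0.50 (*Sqle*), -0.10 (*Fdft1*) and 0.25 (*Lss*). *Sqle* (chr15:59315077-59331192), squalene epoxidase, a rate-limiting enzyme of the pathway, measured 18.7, 13.5, 32.0 and 12.8 CPM in the vehicle group and 10.5, 7.05, 9.50 and 9.88 CPM in HPβCD infarcts. The groups did not overlap. Means were 19.3 ± 8.87 and 9.22 ± 1.50 CPM (log2 fold change -1.06, SE 0.31, adjusted p = 0.0819 by edgeR). Without vehicle animal 3 the log2 fold change was -0.70 (adjusted p = 0.0748 by edgeR), and without vehicle animals 1 and 3 it was -0.50 (adjusted p = 0.199 by edgeR).

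*Fdft1*, squalene synthase, which commits farnesyl diphosphate to sterols, had the lowest log2 fold change of all members, -1.39 (SE 0.57, adjusted p = 0.158 by edgeR). It measured 17.7, 8.18, 48.0 and 8.87 CPM in the vehicle group and 8.91, 6.56, 9.77 and 6.27 CPM in HPβCD infarcts. Vehicle animals 2 and 4 lay inside the HPβCD range, so the difference rested on vehicle animals 1 and 3. Without both it was -0.10. In addition, 18.3% of the exon length of *Fdft1* overlaps *Ctsb* on the opposite strand, and the strand setting of the authors' counting is not given in the sources used here. *Lss*, lanosterol synthase, was at 14.9 ± 7.19 and 12.1 ± 1.46 CPM, and its log2 fold change of -0.29 was 0.10 without vehicle animal 3.

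Among the 9 genes from lanosterol to cholesterol, 6 log2 fold changes were below 0 and 3 above, with a median of -0.30. The gene with the smallest p-value of all members was *Sc5d* (chr9:42251595-42264256), the desaturase of the late pathway. It measured 33.4, 29.6, 39.2 and 27.4 CPM in the vehicle group and 22.6, 21.3, 21.7 and 23.4 CPM in HPβCD infarcts. The HPβCD animals were tightly grouped and all lay below the lowest vehicle animal. The means of 32.4 ± 5.17 and 22.2 ± 0.922 CPM gave a log2 fold change of -0.54 (SE 0.15, adjusted p = 0.0730 by edgeR), which was -0.44 without vehicle animal 3 (adjusted p = 0.0732 by edgeR) and -0.34 without vehicle animals 1 and 3 (adjusted p = 0.200 by edgeR). Its printed promoter holds 1 CCAAT match and no match to the sterol element core.

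*Ebp* (chrX:8185329-8193512), the isomerase that moves a double bond in the sterol ring just before the step of *Sc5d*, differed in the other direction. It measured 13.8, 13.9, 17.8 and 13.9 CPM in the vehicle group and 27.5, 21.9, 31.9 and 15.0 CPM in HPβCD infarcts. The groups overlapped only because HPβCD animal 4 lay below vehicle animal 3. Means were 14.9 ± 1.96 and 24.1 ± 7.27 CPM (log2 fold change 0.70, SE 0.23, adjusted p = 0.104 by edgeR). Without vehicle animals 1 and 3 the log2 fold change was 0.81 (adjusted p = 0.150 by edgeR). Adjacent steps of the late pathway thus had log2 fold changes of opposite sign, and the difference between them was not tested.

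The other 7 genes of the late pathway had adjusted p-values by edgeR of 0.149 or more. *Cyp51*, the demethylase that acts on lanosterol, was at 24.1 ± 13.7 CPM in the vehicle group and 13.0 ± 3.18 CPM in HPβCD infarcts (log2 fold change -0.89, SE 0.36), with vehicle animal 3 at 44.5 CPM and every other library between 10.6 and 19.4 CPM. Without vehicle animal 3 its log2 fold change was -0.41. *Msmo1* (log2 fold change -0.56) and *Hsd17b7* (-0.55) act in the removal of methyl groups, as does *Nsdhl*, which had a log2 fold change of 0.32. *Nsdhl* was at 22.0, 14.1, 25.2 and 15.3 CPM in the vehicle group and 31.7, 27.9, 20.6 and 15.7 CPM in HPβCD infarcts, so within this group of enzymes the direction was not shared. *Dhcr7*, the reductase of the last step, ranged from 24.2 to 28.1 CPM in vehicle and from 25.7 to 32.9 CPM in HPβCD infarcts (log2 fold change 0.19). The reductases *Lbr* and *Tm7sf2*, which catalyze the same reaction, had log2 fold changes of -0.07 and -0.30. *Lbr*, like *Srebf1* and *Insig2*, had its lowest value in vehicle animal 3, at 35.6 CPM against 42.9 to 68.2 CPM in the other 7 libraries. Of the exon length of *Tm7sf2*, 12.1% is shared with *Vps51* on the same strand, which limits its count.

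**Figure D2:**
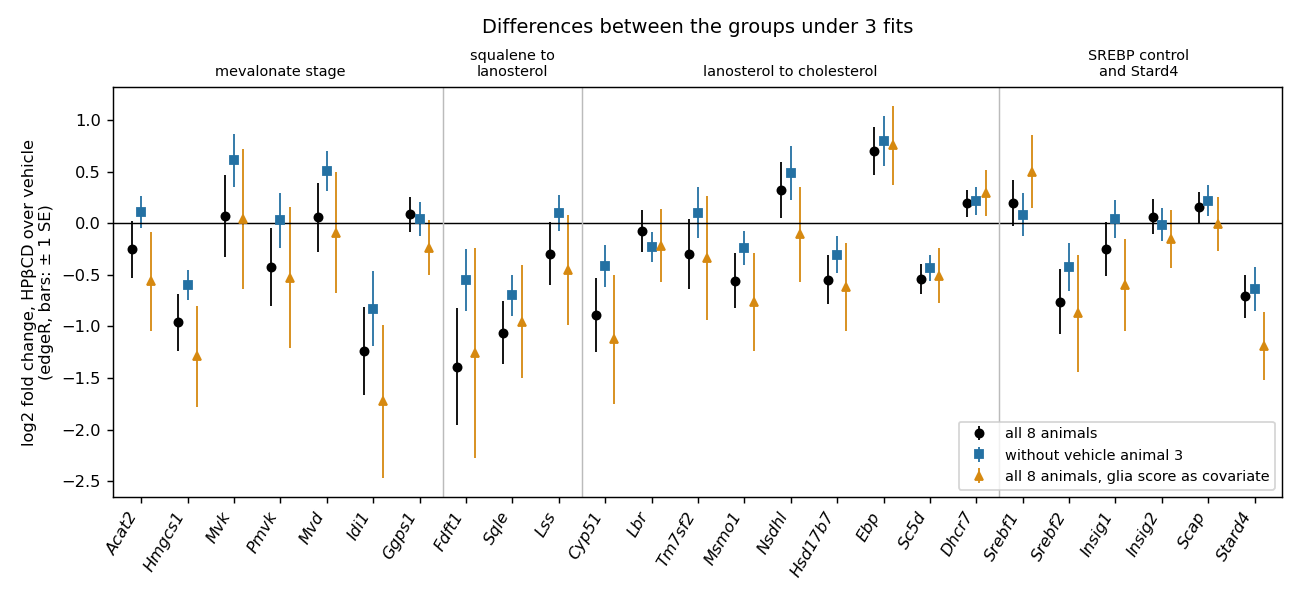
Log2 fold change (HPβCD over vehicle, edgeR, bars ± 1 SE) of the 25 tested genes for all 8 animals (black), without vehicle animal 3 (blue) and with the glia score as a covariate (orange). Leaving out vehicle animal 3 moved the median from -0.29 to 0.03, while the covariate moved it to -0.51 with wider errors.

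Among the regulators, *Srebf2* (chr15:82147181-82205379), which encodes SREBP-2, measured 112, 73.4, 171 and 65.9 CPM in the vehicle group and 78.3, 60.1, 66.7 and 44.1 CPM in HPβCD infarcts. Vehicle animals 2 and 4 overlapped the HPβCD animals and vehicle animals 1 and 3 stood above them. The log2 fold change was -0.76 (SE 0.32, adjusted p = 0.160 by edgeR), and without vehicle animals 1 and 3 it was -0.15. *Srebf1*, for SREBP-1, was the member in which vehicle animal 3 was lowest and HPβCD animal 3 highest: 169, 135, 103 and 143 CPM in the vehicle group and 156, 153, 211 and 111 CPM in HPβCD infarcts. Its log2 fold change was 0.20 (SE 0.22, adjusted p = 0.608 by edgeR).

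The SREBP genes were then compared as a ratio within each library, which does not depend on scaling. The log2 ratio of *Srebf1* to *Srebf2* was 0.59, 0.88, -0.73 and 1.12 in vehicle and 1.00, 1.35, 1.66 and 1.33 in HPβCD infarcts. The means were 0.47 ± 0.83 and 1.33 ± 0.27 (SD, n = 4), a difference of 0.87 (exact two-sided permutation test over 70 assignments, p = 0.0571, and 0.171 after Benjamini-Hochberg adjustment over 3 ratios). The smallest p this design allows is 0.0286. Only vehicle animal 4 (1.12) lay inside the HPβCD range. Without vehicle animal 3 the difference was 0.47, and without vehicle animals 1 and 3 it was 0.33.

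*Insig1*, an SREBP target that feeds back on the pathway, was at 48.7, 38.8, 83.9 and 46.9 CPM in the vehicle group and 61.7, 41.2, 38.9 and 42.3 CPM in HPβCD infarcts, with the high value again in vehicle animal 3. *Insig2*, which is not induced by SREBP in the same way, was at 84.0 ± 17.7 and 87.7 ± 10.1 CPM. The difference in their log2 ratio was -0.28 (exact two-sided permutation test, p = 0.6, adjusted p = 0.886). That of *Tm7sf2* to *Lbr* differed by -0.14 (exact two-sided permutation test, p = 0.886, adjusted p = 0.886). Without vehicle animals 1 and 3 both differences changed sign, to 0.22 and 0.51. In both ratios the spread of the vehicle animals exceeded the difference, at 0.68 and 1.01 log2 units (SD). *Scap*, the sterol-sensing escort, was at 42.5 ± 5.06 and 47.3 ± 6.82 CPM, a log2 fold change of 0.15 (SE 0.15).

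*Stard4*, which carries cholesterol between membranes and is an SREBP-2 target, was among the members whose groups did not overlap. It measured 24.4, 21.0, 25.7 and 19.7 CPM in the vehicle group and 17.9, 14.5, 9.45 and 13.8 CPM in HPβCD infarcts. Means were 22.7 ± 2.82 and 13.9 ± 3.48 CPM (log2 fold change -0.71, SE 0.21, adjusted p = 0.0829 by edgeR). Unlike *Fdft1* or *Srebf2*, it did not rest on vehicle animal 3, which lay close to the other vehicle animals. Without vehicle animals 1 and 3 the log2 fold change was -0.54 (adjusted p = 0.219 by edgeR).

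Glia content was then taken into account, because oligodendrocytes and astrocytes make much of the sterol of the brain and their markers differed between the infarcts. The sum of 10 oligodendrocyte markers was 1734 to 5509 CPM in the vehicle group and 398 to 2335 CPM in HPβCD infarcts, with *Mbp* at 1118 ± 479 and 355 ± 392 CPM. Precursor markers (8 genes) ranged from 119 to 332 and from 28.0 to 92.5 CPM, and astrocyte markers (10 genes) from 3230 to 10341 and from 1417 to 3300 CPM. In the list of precursor markers *Neu4* was at 0 in at least 1 library, and no other marker was. A glia score, the mean centred log2 CPM of the 3 lists, was 1.67, 0.47, 0.81 and 0.92 in vehicle animals 1 to 4. In HPβCD animals 1 to 4 it was -1.99, -1.75, 0.32 and -0.44, so every HPβCD animal lay below every vehicle animal and the score is confounded with the groups.

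With the glia score as a covariate, 21 of the 25 log2 fold changes were below 0 and their median was -0.51, against -0.07 over all genes. None of the 25 and none of the 14736 genes (0.0%) had an adjusted p under 0.05 by edgeR in that fit. At an unadjusted p under 0.05, edgeR gave 3 of the 25, *Hmgcs1* (-1.29, SE 0.49), *Idi1* (-1.73, SE 0.74) and *Stard4* (-1.19, SE 0.33), against 4.86% of all genes. The log2 fold change kept its sign in 20 of the 25 and was smaller in size in 6. With the oligodendrocyte score alone, 22 were below 0 and the median was -0.57. With the neuron score as the covariate, 12 were below 0 and the median was 0.02, and of all genes 0.0136% had an adjusted p under 0.05 by edgeR. The median of the members was thus further from 0 with the glia score in the fit and near 0 with the neuron score.

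The values of single animals were then set beside their marker levels. HPβCD animals 1 and 2 had the lowest glia scores, and HPβCD animal 3 had oligodendrocyte markers inside the range of the vehicle animals, with a sum of 2335 CPM and *Mbp* at 895 CPM. The sterol transcripts of HPβCD animal 3 were mixed. Its *Hmgcs1* (48.3 CPM), *Stard4* (9.45 CPM) and *Idi1* (0.805 CPM) were the lowest of all 8 libraries, its *Sqle* (9.50 CPM) and *Sc5d* (21.7 CPM) lay inside the range of the other HPβCD animals, and its *Fdft1* (9.77 CPM) and *Ebp* (31.9 CPM) were the highest of that group. These genes were picked after their values were seen, and the values of a single animal have no test.

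**Figure D3:**
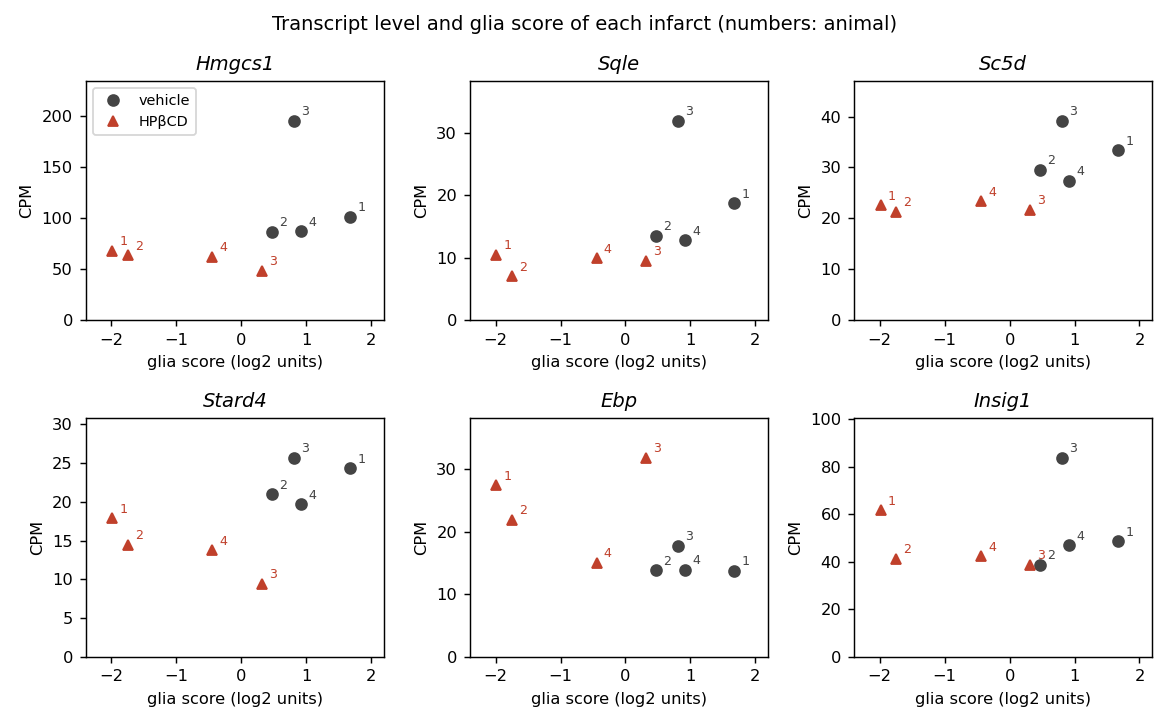
CPM of 6 members against the glia score of each infarct (mean centred log2 CPM of 28 oligodendrocyte, precursor and astrocyte markers, averaged by list), with vehicle in black, HPβCD in red and the animal number beside each point. HPβCD animal 3, at a glia score of 0.32, has the lowest *Hmgcs1* and *Stard4* and the highest *Ebp*.

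Without vehicle animals 1 and 3, the libraries with the most neuronal RNA, none of the 25 had an adjusted p under 0.05 by edgeR (1.34% of all genes did). The log2 fold changes were above 0 in 13 and below 0 in 12, with a median of 0.01, and 19 of the 25 kept their sign. At an unadjusted p under 0.05, edgeR gave 8 of the 25, against 21.5% of all genes. *Hmgcs1*, *Sqle*, *Sc5d* and *Stard4* were lower and *Mvk* (0.70), *Mvd* (0.58), *Nsdhl* (0.71) and *Ebp* (0.81) were higher in HPβCD infarcts. The median of the members was thus at 0.01 without the neuron-rich libraries. The 4 lower genes had no overlap between groups, so leaving out animals could not turn their direction.

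Genes of neighbouring pathways were taken from lists. Of 15 genes of SREBP processing and sterol-regulated degradation, none had an adjusted p under 0.05 by edgeR or DESeq2, none had an unadjusted p under 0.05 by edgeR (27.8% of all genes did), and the median log2 fold change was 0.05. *Rnf145*, a ubiquitin ligase of the endoplasmic reticulum that acts with INSIG proteins, had a log2 fold change of 0.21. *Nus1*, at 139 ± 26.1 and 136 ± 23.3 CPM, acts in dolichol synthesis but was counted in this list, so the list's counts and median include it. Of 13 genes of the nonsterol isoprenoid branch, which makes ubiquinone, dolichol and lipid anchors, none passed by edgeR or DESeq2, 1 had an unadjusted p under 0.05 by edgeR, and the median was -0.06. Its most abundant genes *Zmpste24*, *Chm* and *Fnta* had log2 fold changes of 0.31, -0.06 and -0.16.

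Fatty acid synthesis is the branch driven by SREBP-1. Of 16 genes 15 were tested (*Pnpla3* was not) and 11 had a log2 fold change below 0, with a median of -0.30 that was -0.08 without vehicle animals 1 and 3. None had an adjusted p under 0.05 by edgeR, and 6 had an unadjusted p under 0.05 (27.8% of all genes did). DESeq2, which tested all 16, gave 2, *Gpam* and *Thrsp*, both lower, and 17.0% of all genes. *Scd2*, the stearoyl-CoA desaturase of brain, measured 1841, 1198, 1649 and 1407 CPM in the vehicle group and 826, 1098, 1158 and 1124 CPM in HPβCD infarcts. The groups did not overlap (log2 fold change -0.54, SE 0.20, adjusted p = 0.123 by edgeR). *Scd1*, its relative, and *Elovl5*, an elongase, had log2 fold changes of -0.13 and 0.16.

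LXR genes and LXR targets had log2 fold changes of the other sign. All 10 had a log2 fold change above 0, with a median of 0.53, and 6 had an unadjusted p under 0.05 by edgeR, against 27.8% of all genes. *Pltp*, a phospholipid transfer protein, rose from 451 ± 119 in vehicle to 1412 ± 444 CPM in HPβCD infarcts, by 1.65 log2 units (SE 0.28, adjusted p = 0.0472 by edgeR). It was the one gene of these lists that passed by edgeR (1.95% of all genes did). Of the exon length of *Pltp*, 19.3% overlaps *Ctsa* on the opposite strand, and the strand setting of the authors' counting is not given. The call was lost when vehicle animal 1 or 4 or HPβCD animal 1, 2 or 3 was left out. The lowest adjusted p of the list in these fits was 0.0635 to 0.175 by edgeR. Over all genes these fits called 0, except 4 (0.0266%) without HPβCD animal 1. *Abca1*, the cholesterol exporter, was at 1572 ± 554 and 2795 ± 405 CPM (log2 fold change 0.83, adjusted p = 0.102 by edgeR). *Apoe*, which accepts the exported cholesterol, was at 1490 ± 234 and 2692 ± 1014 CPM (log2 fold change 0.85, adjusted p = 0.0940 by edgeR). DESeq2 gave 4 of the 10 an adjusted p under 0.05, all higher (*Apoe*, *Lpcat3*, *Abca1* and *Pltp*), against 17.0% of all genes. Neither *Abca1* nor *Apoe* overlapped between the groups. These genes are abundant in macrophages. The summed CPM of the foamy macrophage markers was also higher in every HPβCD infarct than in any vehicle infarct. Of these 8 markers 7 had a log2 fold change above 0 by edgeR and 1 below. The part of macrophage content in the LXR genes was not tested.

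Of 8 oxysterol and bile acid enzymes, together with genes of sterol esterification, none had an adjusted p under 0.05 by edgeR, 4 had an unadjusted p under 0.05 (27.8% of all genes did), and DESeq2 gave 3, *Cyp46a1*, lower, and *Soat1* and *Hsd3b7*, higher, against 17.0% of all genes. *Soat1*, which esterifies cholesterol for storage, was at 472 ± 124 and 805 ± 75.5 CPM (log2 fold change 0.77, adjusted p = 0.0741 by edgeR), and *Nceh1*, which hydrolyses the esters, at 284 ± 59.1 and 404 ± 35.5 CPM (log2 fold change 0.51, adjusted p = 0.108 by edgeR). In both genes the lowest HPβCD animal lay above the highest vehicle animal. *Cyp39a1*, a hydroxylase of oxysterols, had a log2 fold change of 0.09. The count behind the *Hsd3b7* call is limited by exon length shared with other genes, as given further on.

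**Figure D4:**
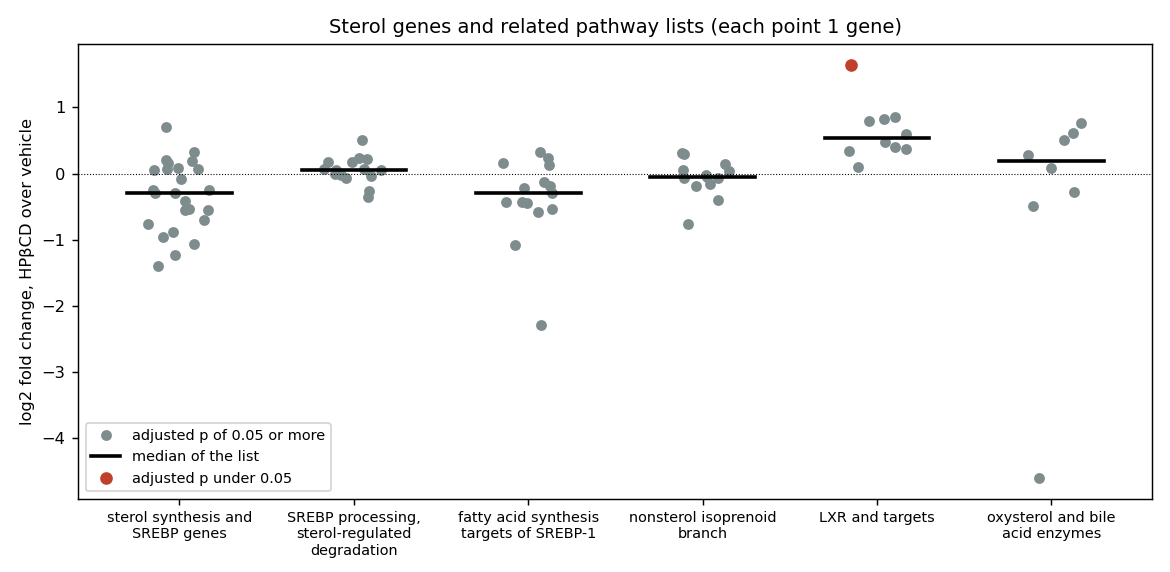
Log2 fold change (HPβCD over vehicle, edgeR, all 8 animals) of each tested gene of the sterol synthesis and SREBP set and of the 5 related lists, with a bar at each list's median and red for an adjusted p under 0.05. The medians are -0.29 for the sterol genes, -0.30 for fatty acid synthesis and 0.53 for LXR and its targets, where *Pltp* is the one red point.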

How the data were processed

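Messenger RNA of 8 infarcts was sequenced by the authors as stranded poly(A) libraries with paired 75-base reads. Per the labels and the methods of the study, reads were trimmed with Trimmomatic 0.32, aligned to GRCm38 with STAR 2.5.2b and counted per gene with HTSeq, whose version, strand setting and annotation release are not given in the sources used here. The deposited values are raw counts per gene, 1 table per animal, and replicates were not pooled. The 5 lines that name no gene held 26.6% to 36.6% of each table and were left out. Symbols matched 45143 of 46078 identifiers.

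Counts were tested with edgeR 4.0.16 (R 4.3.3), robust quasi-likelihood F test, TMM scaling, filterByExpr by group, no covariate, and Benjamini-Hochberg adjustment over 14736 genes with a threshold of 0.05. DESeq2 1.42.0 and limma-voom 3.58.1 with quality weights were alternatives, as were other scalings, filters, a replicate block, marker scores as covariates and leaving out animals. The edgeR procedure was tested on simulated data with 4-fold changes, which does not address differences as small as those of the members. Log2 CPM used a prior count of 2. Ratios were compared by exact two-sided permutation (scipy 1.17.1). The SE of a fold change on the log2 scale is its size over the root of its F statistic.

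Groups and animal numbers came from the labels, which give no batch. Each library is a separate animal, and p-values set the difference between the groups against the spread between these animals. No 2 libraries agreed within sampling noise (lowest chi-square per degree of freedom 20.3). Gene models are those of GENCODE M21 on GRCm38. The sharing of 75-base stretches was computed over its transcripts.

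All 26 members are named. From each related list and marker list, the 3 tested genes with the highest mean CPM serve as examples, with any further related gene that passed, except that 1 gene each of the oligodendrocyte, microglia and SREBP processing lists is not reported here, which leaves 2 examples. The members, the related lists and the marker lists were chosen with earlier results of these data known, so they are not independent evidence. Among the marker lists, by edgeR, none of 10 oligodendrocyte genes (*Mbp*, *Cldn11*), 8 precursor genes (*Ptprz1*, *Olig1*, *Lhfpl3*), 7 neuron genes (*Snap25*, *Syt1*, *Slc17a7*) and 6 endothelial genes (*Cdh5*, *Flt1*, *Kdr*) passed, and 1, 7, 7 and 3 of them had an unadjusted p under 0.05 (DESeq2 called 2, 6, 7 and 2). Over all genes these shares were 1.95%, 27.8% and 17.0%. One passed among 10 astrocyte genes (*Slc1a2*, *Gfap* and *Atp1b2* most abundant; *Fgfr3*, lower), 8 foamy macrophage genes (*Gpnmb*, *Fabp5*, *Spp1*; *Gpnmb*, higher) and 6 microglia genes (*Cx3cr1*, *Tmem119*; *Siglech*, lower), and 2 among 7 fibroblast genes (*Dcn*, *Col1a2*, *Col3a1*; *Col1a1* and *Col1a2*, higher).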

Additional observations from a re-analysis of the deposited data

Results flagged for a closer look

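In groups of 4 animals, a value was picked out when its gap to the nearest other animal exceeded the critical share of the range of the group (Dixon's criterion at 95%). Of 74 groups searched 3 were picked out, and chance picks out about 1 in 20 groups, here 3.7.

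*Mvk* in vehicle animal 3 was at 3.33 log2 CPM, whereas the other vehicle animals were at 1.8 to 2.0. *Ebp* in vehicle animal 3 was at 4.16 log2 CPM and the others at 3.80 to 3.81. This is the library with the most neuronal RNA, and without it *Ebp* had a log2 fold change of 0.80 (adjusted p = 0.0819 by edgeR). The log2 ratio of *Insig1* to *Insig2* was -0.73 in HPβCD animal 1 and -1.03 to -1.0 in the other HPβCD animals. The cause of these values was not tested.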

How the results depend on the processing

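No alternative with edgeR gave any of the 25 tested members an adjusted p under 0.05, while DESeq2 and limma-voom gave 5 each. Several of these edgeR fits called few or no genes at all, so the absence of member calls there says little about the members. None of all genes passed without vehicle animal 1 or 4 or HPβCD animal 2 or 3, or with the glia or oligodendrocyte score. The share was 0.0266% without HPβCD animal 1, 0.0746% with library totals only and 0.0772% with a mean of at least 1 CPM. Without vehicle animal 2 or 3 alone it was 3.72% and 4.22%. DESeq2 called *Hmgcs1*, *Sqle*, *Sc5d*, *Stard4* and *Ebp* (17.0% of all genes), and limma-voom called *Hmgcs1*, *Sqle*, *Sc5d*, *Ebp* and *Nsdhl* (22.1% of all genes). With DESeq2 the LXR list had 4 calls, fatty acid synthesis 2 and the oxysterol list 3. The LXR list, with 1 call (*Pltp*) in the edgeR fit of all animals, had 0 calls by edgeR with library totals only, a mean of at least 1 CPM, the replicate block, and the glia, oligodendrocyte or neuron score. It also had 0 without vehicle animals 1 and 3 together, where 1.34% of all genes passed. The same held without vehicle animal 1 or 4 or HPβCD animal 1, 2 or 3 alone, where 0.0266% of all genes or fewer passed. The list had 2 without vehicle animal 3 (4.22% of all genes) or HPβCD animal 4 (2.35% of all genes). Without vehicle animal 3, edgeR also called *Gpam* of fatty acid synthesis and *Ch25h* of the oxysterol list. Leaving out single animals gave 12 to 20 members lower and medians of -0.43 to 0.03, the last without vehicle animal 3. The differences between the groups in log2 ratio then ranged from 0.47 to 1.09 for *Srebf1* to *Srebf2*. They ranged from -0.47 to 0.026 for *Insig1* to *Insig2* and from -0.43 to 0.34 for *Tm7sf2* to *Lbr*. The latter 2 were 0.22 and 0.51 without vehicle animals 1 and 3.

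Of 475 values of single members under alternatives, 414 kept their direction and side of the threshold, 10 kept their direction and passed it, and 51 changed sign. The sign changed without vehicle animals 1 and 3 for *Acat2* (0.17), *Pmvk* (0.23), *Lss* (0.25), *Tm7sf2* (0.30), *Insig1* (0.12) and *Insig2* (-0.12). With limma-voom it changed for *Acat2* (0.14), *Pmvk* (0.056), *Lss* (0.17), *Tm7sf2* (0.20), *Insig1* (0.019) and *Insig2* (-0.091), and with library totals for *Insig2* (-0.025). With the neuron score it changed for *Acat2* (0.20), *Pmvk* (0.21), *Ggps1* (-0.10), *Fdft1* (0.016), *Lss* (0.29), *Tm7sf2* (0.34), *Insig1* (0.10) and *Insig2* (-0.18). With the glia score it changed for *Mvd* (-0.092), *Ggps1* (-0.24), *Nsdhl* (-0.11), *Insig2* (-0.15) and *Scap* (-0.011). With the oligodendrocyte score it changed for *Mvk* (-0.11), *Mvd* (-0.21), *Ggps1* (-0.16), *Nsdhl* (-0.14), *Insig2* (-0.047) and *Scap* (-0.041). Without single animals it changed for *Acat2* (-0.38 to 0.11), *Ggps1* (-0.029 to 0.20), *Insig1* (-0.41 to 0.042), *Insig2* (-0.016 to 0.23), *Lbr* (-0.23 to 0.062), *Lss* (-0.43 to 0.10), *Mvd* (-0.12 to 0.51), *Mvk* (-0.090 to 0.61), *Pmvk* (-0.66 to 0.027) and *Tm7sf2* (-0.46 to 0.10). The causes were not tested.

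Animals share only a number across groups: correlations of same-numbered deviations were -0.26, 0.24, 0.33 and 0.10, and 3 of 8 libraries correlated best with their own number. With the replicate block edgeR called 9 of all genes in place of 287, none of them a member, and the members' median was -0.19.

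Limits are the 4 animals per group, low counts in *Idi1* and *Fdps*, and hand-cut pieces whose glia score separates the groups. Neuron content differed mainly within the vehicle group, with marker sums of 970 and 6132 CPM in vehicle animals 1 and 3. Those of vehicle animals 2 and 4 (42.2 and 19.0 CPM) lay inside the HPβCD range of 8.88 to 85.7 CPM.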

Other observations

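These genes of the related lists were picked after their values were seen, and the values have no explanation here. *Cyp46a1*, which turns cholesterol into an oxysterol in neurons, was at 22.4, 1.01, 74.8 and 1.40 CPM in vehicle and 0.402, 0.613, 2.36 and 0.666 CPM in HPβCD infarcts. It was highest in the vehicle animals with the most neuronal RNA. *Gpam*, which starts glycerolipid synthesis, was at 165, 89.8, 72.0 and 127 CPM in vehicle and 42.3, 49.3, 65.1 and 58.6 CPM in HPβCD infarcts, and the groups did not overlap (log2 fold change -1.07, SE 0.27, adjusted p = 0.0650 by edgeR). *Lpcat3*, an LXR target that remodels membrane phospholipids, was at 41.0, 44.6, 31.4 and 44.4 CPM in vehicle and 76.9, 75.5, 76.4 and 51.6 CPM in HPβCD infarcts, again without overlap (log2 fold change 0.80, SE 0.18, adjusted p = 0.0580 by edgeR). *Hsd3b7*, of bile acid synthesis, was at 12.4 ± 2.06 and 18.9 ± 1.71 CPM (log2 fold change 0.61, adjusted p = 0.0728 by edgeR). Of its exon length, 62.0% is shared with *Gm49388* on the same strand and 62.4% overlaps *9430064I24Rik* on the opposite strand, which limits its count. *Pdss1*, of ubiquinone synthesis, was at 3.48 ± 0.801 and 2.04 ± 0.0687 CPM (log2 fold change -0.76, adjusted p = 0.0867 by edgeR).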
